A study of Mus musculus with 2 samples.

Results

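The globin genes encode the chains of haemoglobin, the oxygen carrier of red blood cells, and 8 of them were followed here in the chromatin map of an olfactory neuron. They are the beta-like genes Hbb-bt, Hbb-bs, Hbb-bh1, Hbb-bh2 and Hbb-y on chromosome 7 and the alpha-like genes Hba-a1, Hba-a2 and Hba-x on chromosome 11. The genes were chosen by name and located in the GRCm38 gene annotation, where they are 8 of 21755 protein-coding genes on chromosomes 1 to 19 and X. The comparison asks where the neurons' chromatin boundaries lie around 2 loci whose genes are known as products of the red cell lineage. Expression was not measured in these data, so neither the silence of these genes in olfactory neurons nor the identity of the sorted cells could be checked on transcripts, and both are taken as background.

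The study made in situ Hi-C maps, which record the pairs of genomic positions that touch in a fixed nucleus. A boundary is a position that few contacts cross, and an interval is here the stretch between the midpoints of neighbouring boundaries. The study had 1 group of 2 biological replicates, of 170000 and 220000 cells, and no second group. The cells were mature olfactory sensory neurons sorted as Olfr1507-positive from the olfactory epithelium of MOR28-GFP mice. These animals were adults of the strain 129P2/OlaHsd, of mixed sex, and the labels do not say how many were used. MOR28 is another name of Olfr1507, the odorant receptor gene whose choice the GFP reports. Cells were fixed with 1% formaldehyde and cut with DpnII, and the labels name no treatment and no further modification. The deposited list holds 1 set of boundaries for both replicates together, so a value below has no replicate error, and the number of read pairs behind it is unknown. A position or length of a single locus in a single list has no test, and percentiles are descriptions of this list.

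In mammals the globin genes sit in 2 clusters on different chromosomes, each with genes used in the embryo and genes used in the adult. In red cell precursors distant enhancers act on them, namely the locus control region beside the embryonic end of the beta cluster and a group of elements in and near the introns of Nprl3 for the alpha cluster. The beta cluster is embedded in odorant receptor genes of class I, the receptor class named for its likeness to fish receptors, and the alpha cluster lies among genes used in most tissues. CTCF is a DNA-binding protein found at many boundaries, where the direction in which its motif points matters.

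The sequences of both loci show where globin genes are alike and where they differ. The RefSeq promoter table for GRCm38.p6 held 7 of the 8 members, and 5 of these had a forward CCAAT before the RefSeq start. CCAAT and CACCC are the textbook promoter boxes of globin genes. The following 30 bases surround that CCAAT, with CCAAT and any complete forward CACCC in capitals, and are read on the strand of the gene. They come from chr7:103813986-103814015 (minus), chr7:103827992-103828021 (minus), chr7:103853278-103853307 (minus), chr11:32283567-32283596 (plus) and chr11:32296384-32296413 (plus), in the order shown.
Hbb-bt: taaCACCCtggcattggCCAATctgctcag
Hbb-bs: ccaCACCCtggtaagggCCAATctgctcac
Hbb-y: accacgggtcaggctgaCCAATagcttcaa
Hba-a1: gagcaagcacaaaccagCCAATgagaactg
Hba-a2: gagcaagcacaaaccagCCAATgagaactg
The windows of Hba-a1 and Hba-a2 differed at 0 of 30 bases, those of Hbb-bt and Hbb-bs at 6 and those of Hbb-bt and Hba-a1 at 16. The CCAAT began 75 bases before the RefSeq start in Hbb-bt and 91 bases before it in Hba-a2, with the other 3 between. The RefSeq starts are not the gene-model starts used elsewhere here. By the gene models, the windows of Hbb-bs and Hba-a1 lie inside the gene and that of Hbb-bt overlaps its 5′ end. Those of Hbb-y and Hba-a2 lie before the gene. In the whole 300-base promoter, read on both strands, CCAAT was present in 5 of 7 members and in 37.4% of 32851 mouse promoters. CACCC was in 6 of 7 members against 57.5% of promoters, and GATAA, the core of GATA factor sites, was in 7 of 7 against 25.4%. ATAAA was in 4 of 7 against 40% of promoters, and TATAAA, which contains ATAAA, in 2 of 7 (Hbb-bt and Hba-x) against 13.6%. These matches describe the letters only, and with 7 related genes the shares are not independent values.

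The members formed 2 compact loci. The beta members spanned chr7:103812524-103853216, 40.7 kb, all on the reverse strand. From left to right they are Hbb-bt and Hbb-bs, the adult beta chains, Hbb-bh2, a beta-like gene, and Hbb-bh1 and Hbb-y, the embryonic beta-like chains. Neighbouring starts lay 14.1, 12.4, 2.64 and 10.1 kb apart in that order. The alpha members spanned chr11:32276400-32297298, 20.9 kb, all on the forward strand. They run from Hba-x, the embryonic zeta-like chain, over Hba-a1 to Hba-a2, the adult alpha chains, with starts 7.11 and 13.0 kb apart. Both loci were shorter than 60 kb, the shortest spacing of neighbouring boundaries in the list.

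No boundary split either locus. The list held 7367 boundaries, each 5000 bp wide, and 0 of them overlapped the beta locus and 0 the alpha locus. Both counts stayed at 0 when the other globin genes and 10 kb on each side were added. The loci, of 40.7 and 20.9 kb, are short beside the median interval of 265 kb, so these counts do not set them apart. How often other stretches of these lengths hold no boundary was not counted. A gene was counted at a boundary when its transcription start site (TSS), the 5′ end of its gene model, lay in the boundary widened by 10 kb on each side. By this measure 0 of the 8 members were at a boundary, where the share over all 21755 protein-coding genes was 13.0%. With 8 members that share 2 intervals, a count of 0 is near that background. The count was 0 as well with 25 kb on each side, where the share over all genes was 25.0%.

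The beta locus lay near the left end of a long interval. Its interval was 655 kb, against a median of 265 kb over 7347 intervals (quartiles 185 and 405 kb), and 679 intervals were longer, which puts it at the 90.8th percentile. On chromosome 7, with 416 intervals and a median of 240 kb, it was at the 91.1st percentile. Among the 108 intervals that hold an odorant receptor gene it was at the 84.3rd percentile, with a median of 330 kb. Counted over 21538 protein-coding genes, each with the interval it lies in, the value was at the 88.4th percentile. The locus filled 6.21% of the interval, and 37.5 kb separated it from the left boundary against 572 kb from the right one.

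**Figure D1:**
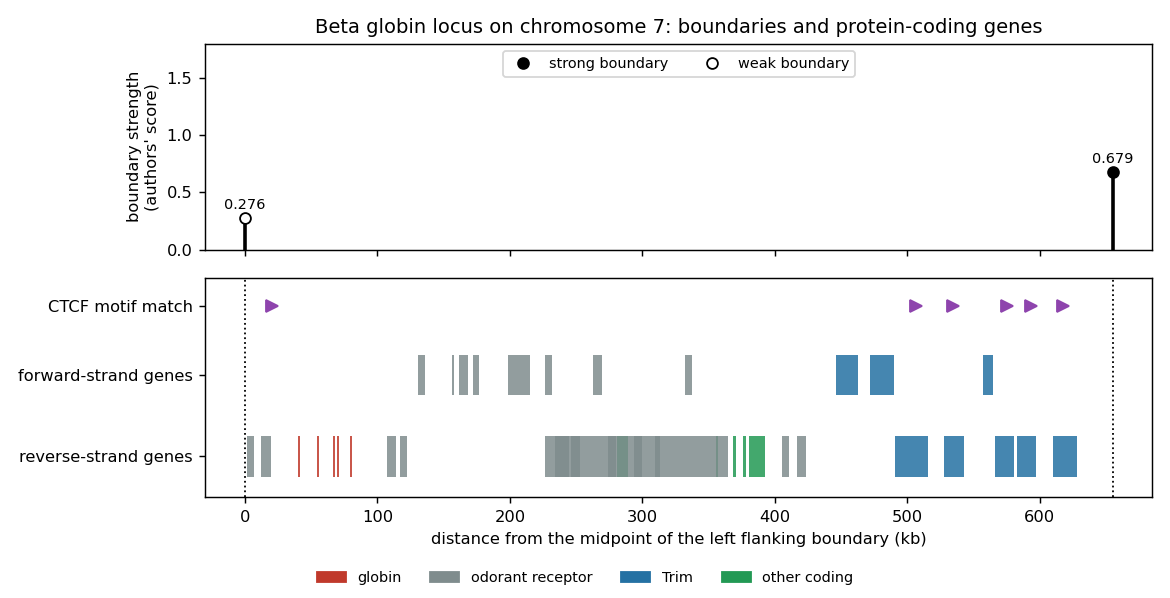
The upper panel plots the strength (the authors' score) of the boundaries that flank the beta globin locus against the distance in kb from the midpoint of the left one, with filled points for strong and open points for weak boundaries. The lower panel shows the protein-coding genes by strand and the CTCF motif matches as arrowheads that point right for the forward strand, and the 5 globin genes sit between 41.5 and 80.7 kb, close to the weak left boundary.

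The left boundary of the beta interval was among the weaker ones of the list. It lay at chr7:103770001-103775000, was of the weak class and had a strength of 0.276. Strength is the authors' own score, and in this list it runs from 0.20 to 4.26 with a median of 0.563, weak below 0.5 and strong from there. The value was at the 17.9th percentile of all boundaries and at the 39.8th percentile of the weak ones. This boundary overlapped exon sequence of Olfr69 and Olfr68, both odorant receptor genes, and the Olfr69 TSS lay 0.906 kb left of its midpoint and the Olfr68 TSS 7.20 kb right of it. The interval of the beta globin genes thus began inside an odorant receptor pair.

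The right boundary lay at chr7:104425001-104430000, was of the strong class and had a strength of 0.679. It stood at the 58.1st percentile of all boundaries and the 23.9th percentile of the strong ones. It overlapped exon sequence of Trim30a, a gene of the TRIM family of ubiquitin ligases, whose TSS was 37.7 kb to the right, and the nearest protein-coding TSS on the left was that of Trim30c, 26.7 kb away. Only 35.6% of its 32-base sequences were found once in the genome, against a median of 95% over all boundaries, and 321 boundaries (4.36%) had under 50% unique sequence. The left boundary had 87.6% unique sequence. What repeated sequence did to these calls was not tested.

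The length of the beta interval rested on which boundaries were counted. Between strong boundaries alone it was 1945 kb, from a boundary at chr7:102480001-102485000 with a strength of 2.53, and it then held 94 odorant receptor genes. Without the weak left boundary it was 1425 kb, and with the 7046 boundaries that have at least 50% unique sequence it was 1235 kb. These 2 alternatives were added after the boundaries had been seen. All of these settings only take boundaries away, so the beta globin genes had to stay in 1 interval with odorant receptor genes.

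The alpha locus lay near the middle of an interval whose length was usual for the full list. Its interval was 255 kb, at the 47.5th percentile of all intervals, and at the 57.6th percentile of the 417 on chromosome 11, whose median was 230 kb. The locus filled 8.20% of the interval, 106 kb from the left boundary and 123 kb from the right one. Between strong boundaries alone the interval was the same 255 kb, and between the 1842 strongest boundaries it was 450 kb.

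**Figure D2:**
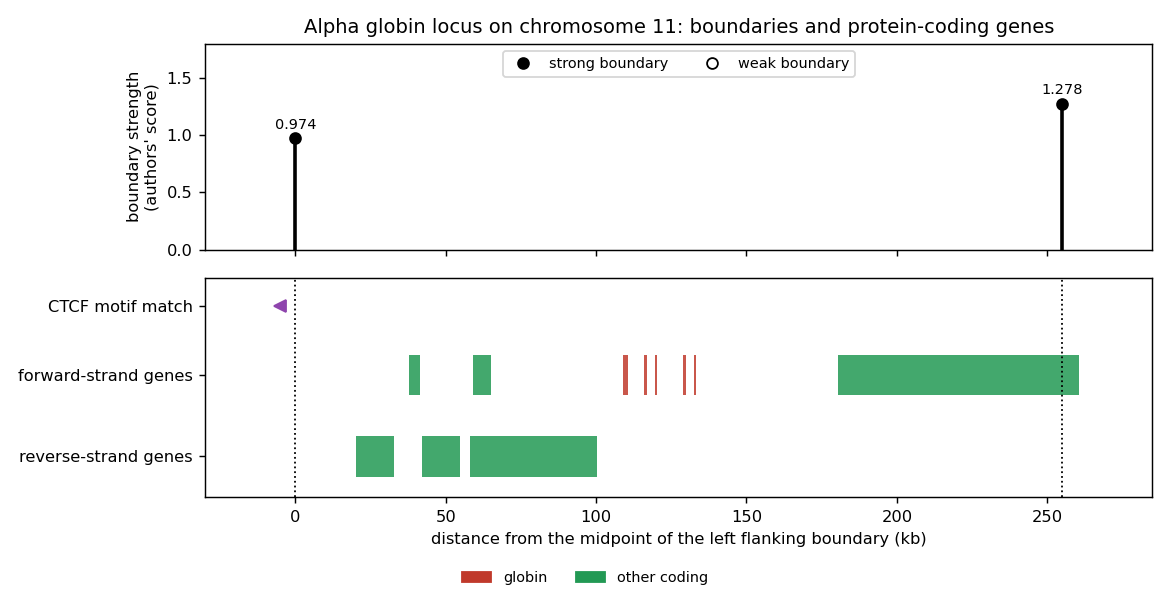
The panels plot boundary strength (the authors' score) and the protein-coding genes around the alpha globin locus in the same way, against the distance in kb from the midpoint of the left flanking boundary. Both flanking boundaries are strong, at 0.974 and 1.28, the globin genes lie near the middle of 255 kb, and the single CTCF motif match is a reverse one outside the left boundary.

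Both boundaries of the alpha interval were strong. The left one, at chr11:32165001-32170000, had a strength of 0.974, at the 74.6th percentile of all boundaries and the 53.9th percentile of strong ones. It overlapped no annotated gene. The nearest protein-coding TSS on its left was that of Nsg2, a gene of a neuronal vesicle protein, at 167 kb, and on its right that of Il9r, the interleukin 9 receptor gene, at 32.8 kb. The right one, at chr11:32420001-32425000, had a strength of 1.28, at the 85.6th percentile of all boundaries and the 73.8th percentile of strong ones. It overlapped exon sequence of Sh3pxd2b, which encodes an adaptor protein of podosomes, near the 3′ end of that gene and 74.7 kb from its TSS. The next TSS to the right was that of Ubtd2, at 32.9 kb. The boundaries had 94.0% and 99.8% unique sequence.

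The flanks of the loci thus stood at different places in the list. Of all intervals, 30.1% had a strong boundary on both sides, as the alpha interval did, and 49.7% had a strong and a weak one, as the beta interval did. The weaker flank of the alpha interval was at the 95.3rd percentile of the weaker flanks of all intervals, and that of the beta interval at the 32.2nd. The stronger flank was at the 72.2nd percentile for alpha and the 32.7th for beta. One step further out, the boundaries beyond the beta interval were both weak, with strengths of 0.460 on the left and 0.258 on the right. Beyond the alpha interval they were strong on the left, with 1.49 in 4930524B15Rik, and weak on the right, with 0.445 in Stk10, a protein kinase gene.

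**Figure D3:**
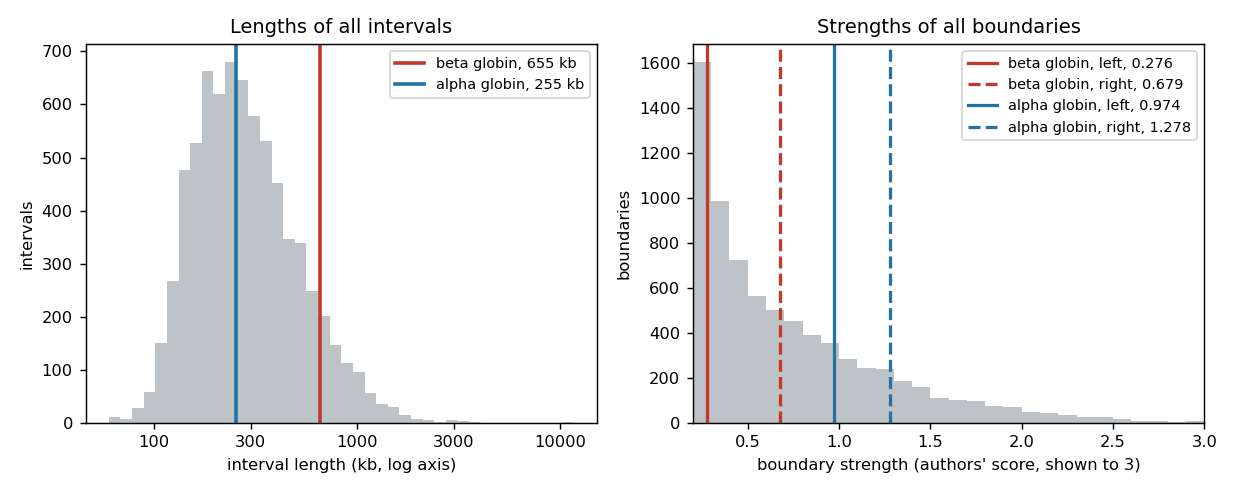
The left histogram counts all 7347 intervals by length in kb on a log axis, with vertical lines for the beta (655 kb) and alpha (255 kb) globin intervals. The right one counts boundaries by strength, the authors' score, with lines for the 4 flanking boundaries, and shows the left beta boundary, at 0.276, near the low end and the right alpha boundary, at 1.28, well above the median of 0.563.

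The distance of each member from its nearest boundary followed its place in the locus. Over all protein-coding genes the median distance from TSS to boundary midpoint was 61.1 kb (quartiles 27.5 and 111 kb). Hbb-bt lay 41.5 kb from the weak left boundary, at the 35.9th percentile of genes, and Hbb-bs 55.6 kb from it, at the 46.2nd. Hbb-bh2 lay 68.0 kb, Hbb-bh1 70.7 kb and Hbb-y 80.7 kb from the same boundary, the last at the 62.3rd percentile. The adult beta genes were therefore the nearer ones and the embryonic genes the farther ones, an order that the gene order and the position of 1 boundary fix. All 5 lay in the first 12.3% of the interval.

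The alpha members were farther from a boundary. Hba-x lay 109 kb and Hba-a1 116 kb from the left boundary, and Hba-a2 126 kb from the right one, at the 74.4th, 76.6th and 79.4th percentile of genes. They began at 42.7%, 45.5% and 50.6% of the way through the interval, counted from its left end.

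**Figure D4:**
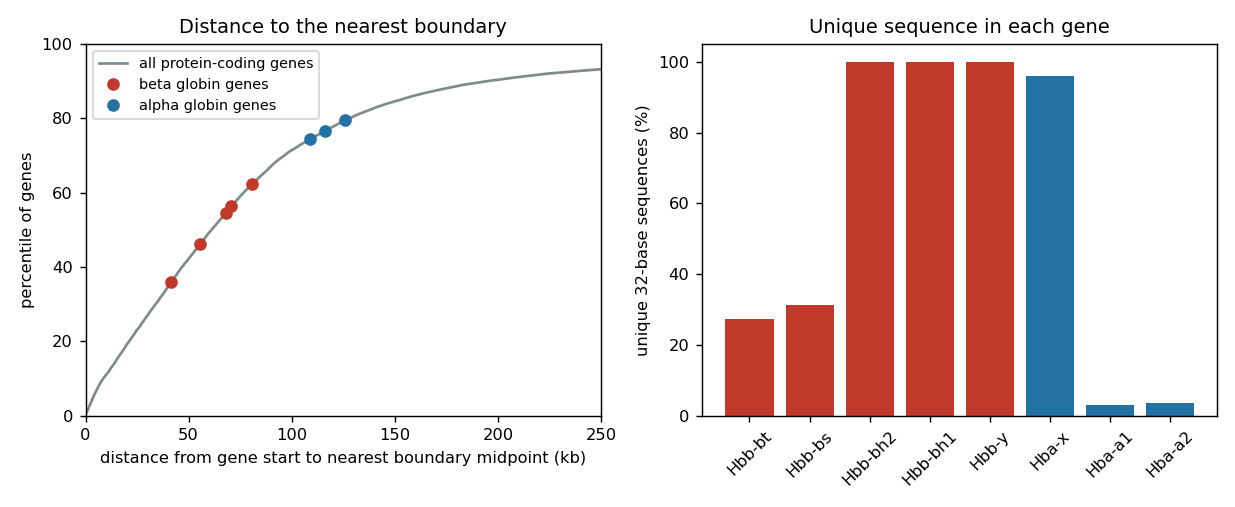
The left panel plots the percentile of protein-coding genes against the distance in kb from TSS to nearest boundary midpoint, as a line for all genes and a point for each globin gene, with the beta genes between 41.5 and 80.7 kb and the alpha genes between 109 and 126 kb. The right panel shows, as bars from 0, the percent of 32-base sequences in each gene that occur once in the genome, which is lowest for Hba-a1 and Hba-a2.

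The members differed in how much of their own sequence occurs once in the genome, counted in 32-base sequences. What the reads of the study could place was not measured. In Hbb-bh2, Hbb-bh1 and Hbb-y 100% of the sampled 32-base sequences were unique, and in Hba-x 95.9% were. In Hbb-bt and Hbb-bs the share was 27.2% and 31.4%, and in Hba-a1 and Hba-a2 it was 3.13% and 3.70%. The adult genes, which are near-identical duplicates, were thus the ones with little unique sequence. Hba-a1 and Hba-a2 were 99.9% identical over 794 aligned positions, and Hbb-bt and Hbb-bs 95.3% identical over 1474. Unique sequence was 76.2% over the whole beta locus and 74.4% over the whole alpha locus. Around them it was 72.7% in the beta interval and 92.4% in the alpha interval, and the median over all intervals was 89.6%. GC content was 40.4% in the beta interval (29.9th percentile of intervals) and 48.1% in the alpha interval (88.5th percentile).

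The beta globin genes shared their interval with a crowd of clustered genes. It held 38 protein-coding genes, and only 11 of the 7347 intervals held more, with a median of 2. That is 5.80 genes per 100 kb, against a median of 0.625 over all intervals. Among them were 20 odorant receptor genes, 5 globin genes and 8 genes of the TRIM family. Of the receptor genes 8 were on the forward and 12 on the reverse strand. Their starts lay 7.20 to 423 kb from the left end of the interval, so that they stood on both sides of the globin genes. The TRIM genes, among them Trim5 and Trim30b, close the interval at 446 to 628 kb.

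The nearest protein-coding neighbours of the beta locus were odorant receptor genes. On the left there were 2, Olfr67 at 20.7 kb and Olfr68 at 32.8 kb from the locus. On the right the 5 nearest, measured to the nearer end of the gene, were Olfr66 at 26.2 kb, Olfr64 at 36.3 kb, Olfr65 at 50.3 kb, Olfr631 at 75.6 kb and Olfr632 at 81.1 kb. No boundary lay between the globin genes and any of these, although the left boundary reached into Olfr68.

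The alpha globin genes shared theirs with 6 protein-coding genes of other kinds. The interval held 11 protein-coding genes, more than most intervals, since 265 had more. That is 4.31 genes per 100 kb, also well above the median of 0.625 over all intervals, against 5.80 in the beta interval. On the left were Il9r, Snrnp25, which encodes a protein of the minor spliceosome, Rhbdf1, of an inactive rhomboid protein, Mpg, of a DNA repair glycosylase, and Nprl3, of a subunit of a complex that restrains mTORC1. Nprl3, which holds the alpha globin enhancers in its introns, lay nearest, 8.69 kb from the locus. The theta-like globin genes Hbq1b and Hbq1a lay between Hba-a1 and Hba-a2 and 2.77 kb beyond Hba-a2. Sh3pxd2b, 50.5 kb to the right, was the last gene and runs into the right boundary. Odorant receptor genes numbered 0 here.

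CTCF motif matches were searched with a 12-base CTCF consensus on both strands. A match lay in the widened window of 1 of the 4 flanking boundaries, where the share over all 7367 boundaries was 23.9%, so the count is near the background. The boundary with a match was the left one of the alpha interval, and its match is reverse and at -5.14 kb from the midpoint, outside the interval. Inside the beta interval there were 6 matches, all forward, or 9.16 per Mb against 4.83 per Mb of the genome, and 0 of them were in the locus. Inside the alpha interval there were 0, where at the genome rate few would fall in 255 kb. The exact pattern misses departures from the consensus, so this count does not show that the interval lacks CTCF sites. Each match is printed with 9 bases on each side, read on the strand of the motif and with the match in capitals, to show which are copies of one another. The first, chr7:103793085-103793114 (plus), lies in no gene, between the left boundary and the beta locus. The alpha one, chr11:32162350-32162379 (minus), lies in no gene either. The others lie in exon sequence of TRIM genes, and that of Trim5 is at chr7:104279376-104279405 (plus).
Left of the beta locus: tgttgcataCCAGTAGGGGGCagaagtgtt
Left of the alpha interval: gcggcctcgCCACCAGGGGGCagagcatgc
Trim5, Trim12a and Trim12c: ctcacaaagCCAGCAGATGGCcatcatgtc
Trim30b: ctcacaaacCCAGCAGATGGCcatcatgtc
Trim30c: ctcacaaacCCAGCAGATGGCcatcctgtc
The match left of the beta locus was 19.4 kb from Hbb-bt and 20.6 kb from the midpoint of the left boundary, on the forward strand and so pointing at the globin genes. The 5 matches in TRIM genes shared 1 core, CCAGCAGATGGC, and 3 of them the whole 30 bases, so they are copies of a repeated exon stretch and not 5 unrelated sequences. Without them the beta interval had 1 match. With a shortened 10-base pattern 3 of the 4 flanks had a match, where 75.6% of all boundaries did. Binding of CTCF was not measured in these data.

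Within the class I receptor cluster, the interval of the beta globin genes was the second longest. The cluster runs over chr7:102476579-105369355 with 156 protein-coding genes, 129 of them odorant receptor genes. It held 8 boundaries, 2 strong and 6 weak, with a median strength of 0.277. The 9 intervals that it touches measured 230, 155, 365, 770, 655, 350, 230, 330 and 185 kb from left to right, and the fifth holds the globin genes. The longest, directly on its left, had 42 receptor genes among 44 protein-coding genes, whereas receptor genes were 20 of 38 in the globin interval. Unique sequence was 73.2% in the globin interval and 68.0% in the longest one at the same sampling, with a range over the 9 intervals of 66.4 to 91.5%. Over the whole cluster 9 of 156 gene starts (5.77%) were at a boundary, against 13.0% of all protein-coding genes, among them Olfr69 and Olfr68 at the left end of the globin interval.

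**Figure D5:**
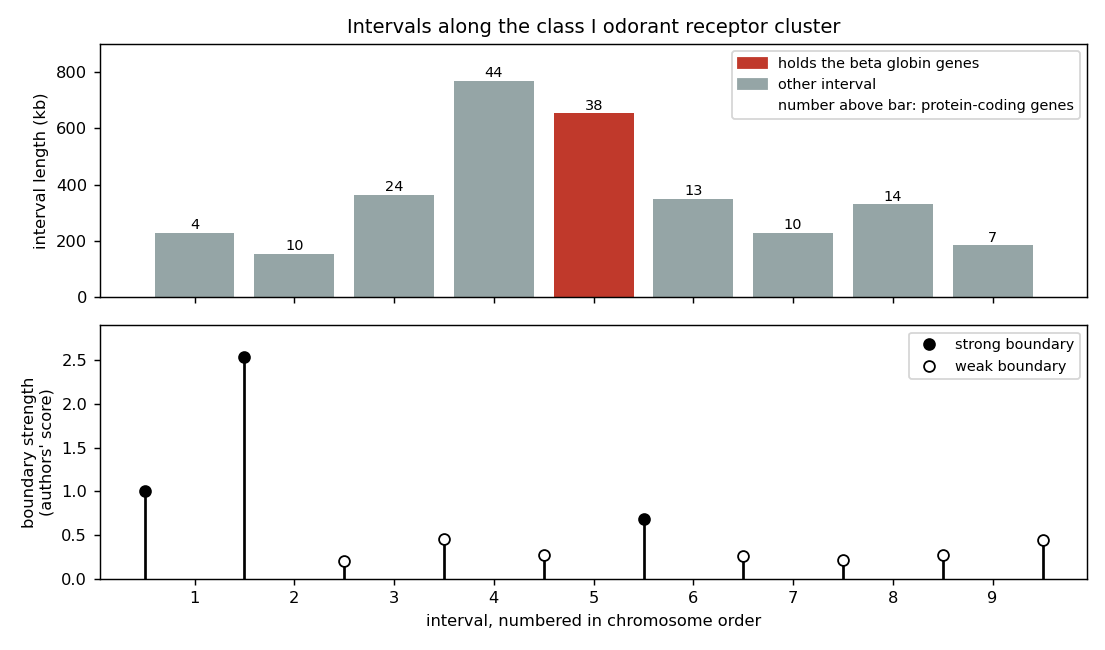
The upper panel shows the length in kb of the 9 intervals along the class I odorant receptor cluster as bars from 0, with the number of protein-coding genes above each bar and the beta globin interval, the fifth, in red. The lower panel plots the strength of the boundaries between them, the authors' score, filled for strong and open for weak, and the globin interval has a weak boundary (0.276) on its left and a strong one (0.679) on its right.

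The trace amine receptor locus, a small family of olfactory receptor genes, gave another cluster for comparison. Its 15 genes spanned 189 kb on chromosome 10 with 0 boundaries inside, in an interval of 320 kb at the 62.1st percentile. Its flanks were strong, at 0.844 and 0.937. In interval length and in its weaker flank it was nearer to the alpha than to the beta globin interval. Its stronger flank was nearer to that of the beta interval (0.679) than to that of the alpha interval (1.28). The locus itself was longer than either globin locus. With 1 locus of each kind the difference has no test.

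The remaining globin family members were placed in the same way. The pseudogenes Hbb-bh3 and Hbb-bh0 lay in the beta locus, 61.2 and 77.6 kb from the left boundary. Hbq1b and Hbq1a lay 119 and 122 kb from their nearest boundary. Of the unlinked globin genes, Ngb, for neuroglobin, the globin of nerve cells, was the only one at a boundary, where the share over all protein-coding genes was 13.0%. The Ngb TSS lay 9.96 kb from the midpoint of a weak boundary with a strength of 0.421, in an interval of 160 kb on chromosome 12. It was 7.46 kb outside the boundary itself, so it counts only in the widened window. Cygb, for cytoglobin, lay 23.2 kb from a strong boundary (0.550) in an interval of 200 kb on chromosome 11. Mb, for myoglobin, the oxygen store of muscle, lay 93.2 kb from a strong boundary (1.13) in an interval of 275 kb on chromosome 15.

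Genes that work with the globins in red cells were scattered over other intervals. Of 29 erythroid genes, 2 were at a boundary (6.90%, 95% Wilson interval 1.91 to 22.0), against 13.0% of all genes. They were Epb41, for a protein of the membrane skeleton, at a weak boundary (0.487), and Cd24a, for a surface glycoprotein, at a strong one (1.26). These 29 genes lay in intervals with a median of 250 kb and a median of 64.6 kb from a boundary, where the medians over all genes were 280 and 61.1 kb. Of 9 genes of haem synthesis, which makes the group that binds oxygen in globin, 2 were at a boundary (22.2%, 6.32 to 54.7). They were Ppox, for protoporphyrinogen oxidase, at a strong boundary (0.627), and Urod, for uroporphyrinogen decarboxylase, at a weak one (0.484). The 9 genes lay in shorter intervals, with a median of 205 kb, and a median of 28.8 kb from a boundary. Alas2 is in this list and in the erythroid one. Of 18 regulators of globin genes, such as Gata1, Klf1 and Bcl11a, 0 were at a boundary, with an upper Wilson bound of 17.6%, and their medians were 260 and 64.5 kb. The counts moved with the width allowed, since the boundary alone held 0 erythroid genes and 1 haem synthesis gene, where 3.45% of all genes were counted. With 25 kb on each side there were 6 erythroid genes and 2 regulators, where 25.0% of all genes were counted. The Wilson intervals hold the 13.0% of all genes in each case, cover counting error only and do not show that a list is at the background.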

How the data were processed

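In situ Hi-C of 2 biological replicates of sorted Olfr1507-positive neurons was deposited as 1 boundary list made from the combined contacts, on the genome build GRCm38, per the submitters' processing notes and the series design text. The list gives 5000 bp boundaries with a class and a strength, a score deposited by the authors. Its scale was not given in the sources used here, nor were the boundary caller, the aligner and the read depth. Contact matrices, insulation and compartment tracks were not used here.

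Boundaries were joined to GENCODE M21 in Python 3.11.15, and copies were aligned with Biopython 1.88. Percentiles are shares of values no larger than the one given. Unique sequence is the share of 32-base sequences, taken every 250 bases (10 in the globin intervals), found once in GRCm38. GRCm38 is C57BL/6J sequence, and how 129P2/OlaHsd differs from it, the beta globin haplotype included, was not examined. Shares of genes have 95% Wilson intervals. The placing of positions in boundary windows and intervals, the interval lengths and the merging of neighbours were checked on simulated data. The sequence counts and alignments were not checked in this way.

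The members, gene lists and alternatives were chosen with earlier results of these data known. Named genes were the members, the genes of an interval with up to 25 protein-coding genes (otherwise the 5 nearest on each side), genes at or next to flanking boundaries, listed genes at boundaries and other globins. The families of the beta interval and the boundaries beyond the flanks were named after their values were seen. Of the erythroid list 29 of 30 symbols were in the annotation. Alternatives were strong boundaries alone, the 1842 strongest, merged neighbours within 100 kb, other windows, all genes, any transcript start and a shortened CTCF pattern.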

Additional observations from a re-analysis of the deposited data

How the results depend on the processing

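The replicates were combined before boundaries were called, so neither could be left out, and depth is unknown. With all annotated genes counted, the beta interval held 56 in place of 38 and the alpha interval 12 in place of 11. The counts of 0 boundaries inside either locus held when the other globin genes and 10 kb on each side were added. The count of 0 members at boundaries held with 25 kb on each side and with any transcript start. With the boundary alone or strong boundaries alone that count could not rise, so these settings do not test it. Merging neighbours left the lengths at 655 and 255 kb, but no flanking boundary had a neighbour within 100 kb, so it could not change them. Measuring between inner edges (650 and 250 kb) shortens every interval by 5000 bp. These settings do not test the lengths. The beta interval was 1945 kb with 116 protein-coding genes between strong boundaries alone and 5325 kb with 210 genes between the 1842 strongest. Of the alternatives added after the data were seen, leaving out the weak left boundary gave 1425 kb and 82 genes, and keeping boundaries with at least 50% unique sequence gave 1235 kb and 61 genes. The alpha interval moved to 450 kb between the 1842 strongest. With the boundary alone, 0 erythroid genes and 1 haem synthesis gene (Urod) were counted, against 3.45% of all genes, and 0 of 4 flanks had a CTCF match, against 6.22% of all boundaries. With 25 kb on each side there were 6 erythroid genes and 2 globin regulators (Gfi1b and Zfpm1), against 25.0% of all genes, and 2 flanks, against 39.1% of all boundaries. Strong boundaries alone held 1 erythroid gene (Cd24a) and 1 haem synthesis gene (Ppox), against 8.39% of all genes. The shortened CTCF pattern was at 3 of 4 flanks and at 75.6% of all boundaries.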
